A study of Mus musculus with 6 samples.

Results

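The genes described here supply, remove or regulate the phosphate and pyrophosphate of mineralizing tissue. They are Alpl, Phospho1, Smpd3, Phex, Enpp1, Ank, Slc20a1, Slc20a2 and Fam20c, and their rows were taken by symbol, as members of a pathway picked with earlier results of these data known. All 9 were present among the 25899 genes of the deposited table, and all 9 passed the filter on low values used for testing. They were read in mouse first molars of the lower jaw at postnatal day 7.5, from the apical part of the dental mesenchyme, where root formation begins.

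Poly(A) RNA was sequenced from 3 mutant and 3 control libraries on an Illumina NextSeq 500. The mutants carried Gli1-CreER and floxed alleles of Bmpr1a (Gli1-CreER;Bmpr1afl/fl), and the controls were littermates with the floxed alleles alone (Bmpr1afl/fl). All were of a mixed C57Bl6/129S6/SvEvTac background. Bone morphogenetic proteins (BMPs) signal through type I receptors, of which Bmpr1a encodes one, and CreER is a recombinase that needs tamoxifen and is made here in cells that express Gli1. The deletion is therefore limited to the cells in which the Gli1 driver was active and to their descendants. The labels used here give no tamoxifen schedule and do not say whether the controls received it or whether animals were pooled. Libraries numbered 1 and 2 were of litter 1 in both genotypes, and those numbered 3 were of litter 2. The labels do not say that the libraries of a group came from separate animals. Within litter 1 of each genotype, however, Xist, a transcript of the inactive X chromosome, was 0.0329 and 262 RPM in controls 1 and 2 and 0.178 and 262 RPM in mutants 1 and 2, so these libraries were not repeats of the same RNA. The p-values measure the spread between these samples.

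Hydroxyapatite forms when calcium meets free phosphate, and pyrophosphate blocks the growth of its crystals. Alpl, tissue-nonspecific alkaline phosphatase, hydrolyses pyrophosphate outside the cell, whereas Phospho1 frees phosphate from phosphocholine inside matrix vesicles and Smpd3 makes phosphocholine from sphingomyelin. Enpp1 produces pyrophosphate from nucleotides and Ank exports it or its nucleotide source, while Slc20a1 and Slc20a2 carry phosphate into cells. Phex, an endopeptidase of bone and tooth cells, restrains phosphate-wasting hormone and mineral-binding peptides, and Fam20c is the kinase that phosphorylates secreted matrix proteins. Loss of Alpl, Phex or Fam20c function is known to impair the mineral of teeth and bone.

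Levels are given in RPM, read numbers scaled to a common library size, and are not corrected for gene length unless stated. The libraries held 15916045 to 20609420 reads on genes, 1 read was worth 0.0329 to 0.0419 RPM, and the gene of the pathway with the fewest reads in any library, Phospho1, still had 120. The reads carry no molecular identifiers and may be copies of a molecule, so such counts speak to counting error only. Bmpr1a was 121, 139 and 149.5 RPM in controls 1 to 3 and 108, 120.2 and 111 RPM in mutants 1 to 3, and its change of -0.27 (SE 0.14) did not pass the test (limma, Benjamini-Hochberg adjusted p = 1.00). The groups did not overlap for Bmpr1a, as for 2.64% of all tested genes. The reads are not known to come from the deleted exons, and the floxed gene was not absent from any mutant library. Markers of the labelled tissue were present in every library: the 8 dental mesenchyme genes summed to 2833 to 4066 RPM in controls and 2585 to 3955 RPM in mutants. The 8 odontoblast markers, which include Phex itself, summed to 23538 to 37021 RPM in controls and 8366 to 51184 RPM in mutants. All 11 enamel epithelium markers were detected too, at a sum of 4955, 2339 and 39321 RPM in controls 1 to 3 and 49721, 5362 and 20594 RPM in mutants 1 to 3. Erythroid markers ranged from 177 to 1984 RPM in controls, with the top value in control 3, and from 256 to 610 RPM in mutants. In bulk tissue fewer cells of a type and less RNA per cell cannot be told apart. Litter, dissection and animal cannot be told apart either, since litter 2 holds 1 library of each genotype.

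Per length of exon, Slc20a2 and Alpl were the most abundant transcripts of the pathway in control tissue. Slc20a2 reached 332 ± 203 RPM per kb (SD, n = 3) and Alpl 222 ± 25.6, and the control values of this pair overlapped. Phex (53.1 ± 31.6 RPM per kb), Smpd3 (50.8 ± 31.9) and Ank (38.3 ± 14.2) followed in the means, with overlapping controls between neighbours. Without control 3 the control mean of Phex was 70.7 and that of Smpd3 32.5 RPM per kb, so the closeness of this pair rests on that library. Fam20c came next at 20.6 ± 2.59 RPM per kb, then Phospho1 at 11.1 ± 11.9, Enpp1 at 5.48 ± 2.09 and Slc20a1 at 5.23 ± 2.97. Only the steps from Alpl to Phex and from Ank to Fam20c separated the controls of neighbouring genes without overlap. The order of Alpl above Phex held in 6 of 6 libraries, that of Phospho1 above Enpp1 in 3 of 6 and that of Enpp1 above Slc20a1 in 2 of 6. Without control 3 the control mean of Phospho1 was 4.23 RPM per kb and that of Enpp1 4.28, so their order in the means rests on that library.

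**Figure D1:**
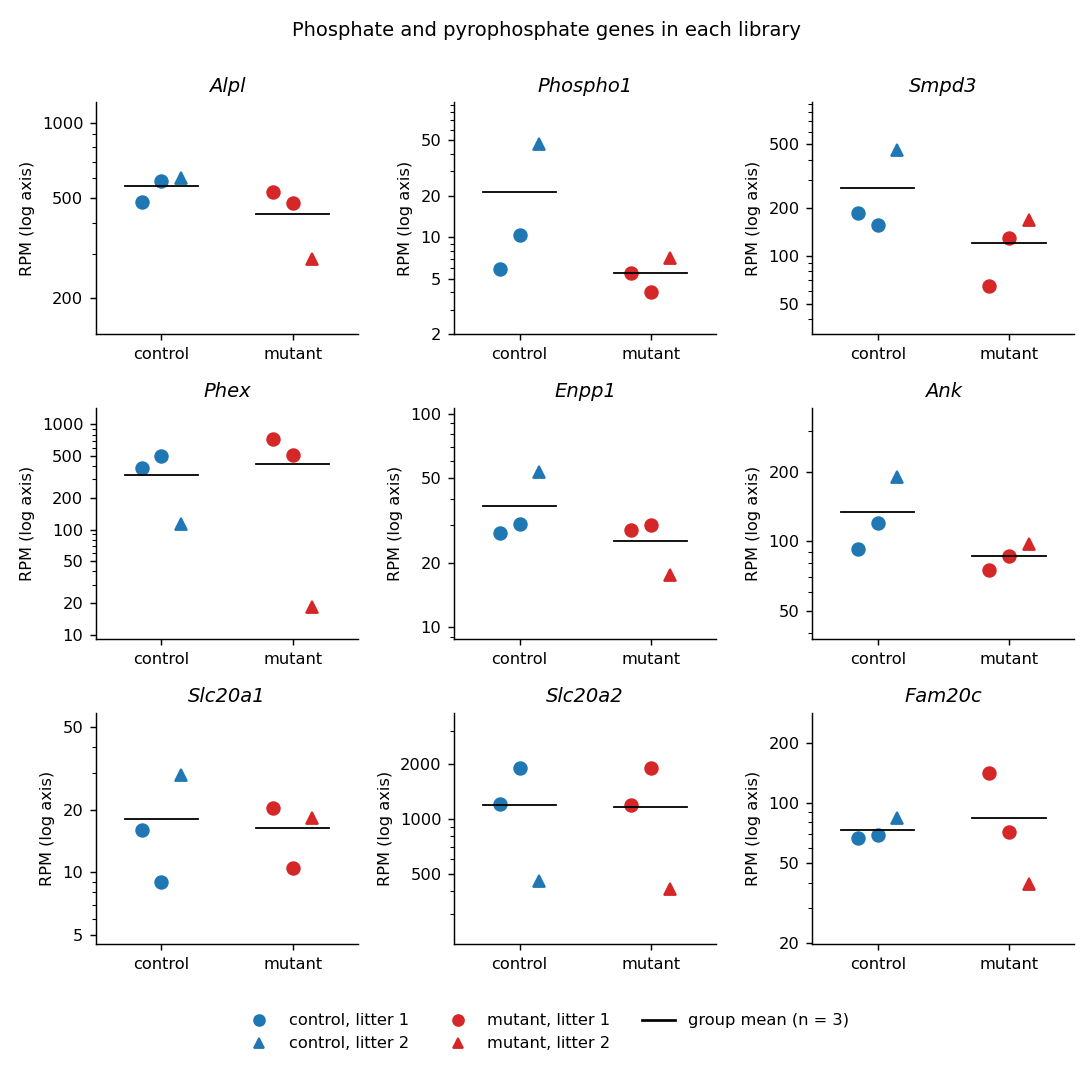
RPM of the 9 genes in each library on log axes, with circles for litter 1, triangles for litter 2 and a bar for each group mean (n = 3). Phex and Slc20a2 have both litter 2 libraries below all litter 1 libraries, and control 3 is the top library for Phospho1, Smpd3, Ank, Enpp1, Alpl and Slc20a1.

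No gene of the pathway passed the test of mutants against controls. The test was limma on log2(RPM + 1), and all changes below are on that scale. The adjusted p was 1.00 for each of the 9 genes, and among the 14444 genes tested 0 passed (0%). The unadjusted p fell under 0.05 for 0 of the 9, against 152 of all tested genes (1.05%). For 8 of the 9 the estimate lay below 0, as it did for 54.4% of all tested genes, and the median over the 9 was -0.51 against -0.01 over all tested genes. Medians of the cell type marker lists ran from -0.50 (osteoblast) and -0.40 (odontoblast) to 1.00 (enamel epithelium), and their part was not tested. The mutant and control libraries overlapped for every one of the 9, whereas 2.64% of all tested genes had groups that did not overlap. Without control 3 there were 7 of 9 estimates below 0 (median -0.35), and without mutant 3 there were 6 (median -0.14). Litter 1 alone gave 5 of 9 below 0 with a median of -0.01.

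Among the genes that free phosphate, Alpl lies on chromosome 4 (chr4:137741733-137796384, minus strand, GRCm38). Alpl was 485, 587 and 605 RPM in controls 1 to 3 and 531, 480.5 and 287 RPM in mutants 1 to 3. Mutant 3 stood below the other 5 libraries, which lay close together. The means were 559 ± 64.5 in controls and 433 ± 129 in mutants (SD, n = 3 each), a change of -0.41 (SE 0.27, 95% interval -1.05 to 0.23, limma unadjusted p = 0.175). Within litter 1 the difference was -0.08, and within litter 2, with 1 library a side, it was -1.07. Without mutant 3 the change of Alpl was -0.14.

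Phospho1 lies at chr11:95824499-95832140 on the plus strand and was the most variable of the phosphate-freeing enzymes. It was 5.86, 10.3 and 47.2 RPM in controls 1 to 3 and 5.51, 3.99 and 7.12 RPM in mutants 1 to 3. Control 3 was far above the other 5 libraries, and controls 1 and 2 lay within or just above the range of the mutants. The means of 21.1 ± 22.7 and 5.54 ± 1.57 RPM gave a change of -1.27 (SE 0.66, 95% interval -2.84 to 0.29, limma unadjusted p = 0.0952), and without control 3 the change was -0.46. Values within the litters were -0.63 and -2.57. Control 3 was also the library with the highest erythroid sum, and its enamel marker sum was 39321 RPM; the part of either in the Phospho1 value was not tested.

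The reads assigned to Phospho1 need care. Of the 2029 exon bases in all its annotated models, 1708 (84.2%) are shared with exons of Abi3 on the opposite strand and 1818 (89.6%) with exons of Zfp652 on the same strand. Abi3 ran from 7.75 to 45.6 RPM over the libraries, with control 3 on top, and Zfp652 from 64.6 to 106 RPM. The sources used here do not state how reads were counted or whether strand was used, so reads of these genes may not be told apart.

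Smpd3, neutral sphingomyelinase 2, lies at chr8:106252548-106337988 on the minus strand. It was 184, 155 and 458 RPM in controls 1 to 3 and 64.7, 129 and 168 RPM in mutants 1 to 3. The mutant of litter 2 overlapped the controls of litter 1, while within each litter the mutants lay below the controls. The means were 266 ± 167 and 120.4 ± 52.0 RPM, with a change of -1.07 (SE 0.49, 95% interval -2.21 to 0.07, limma unadjusted p = 0.0625). The value was -0.88 within litter 1 and -1.44 within litter 2, and -0.59 without control 3 and -0.68 without mutant 1. Smpd3 shares 247 of its exon bases (4.72%) with Prmt7.

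Of the genes that supply pyrophosphate, Enpp1 (chr10:24637914-24712159, minus strand) had near-equal values in the libraries of litter 1. It was 27.6, 30.4 and 53.4 RPM in controls 1 to 3 and 28.4, 30.1 and 17.6 RPM in mutants 1 to 3. The 4 libraries of litter 1 were close together, with control 3 above them and mutant 3 below. The means were 37.1 ± 14.2 and 25.4 ± 6.78 RPM and the change -0.51 (SE 0.30, 95% interval -1.22 to 0.20, limma unadjusted p = 0.135), with 0.01 within litter 1 and -1.55 within litter 2. Without control 3 the change of Enpp1 was -0.22, and without mutant 3 it was -0.27.

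Ank, the pyrophosphate exporter, lies at chr15:27466677-27594909 on the plus strand. It was 92.8, 119.5 and 189 RPM in controls 1 to 3 and 75.2, 85.7 and 97.2 RPM in mutants 1 to 3. Only control 1 fell inside the range of the mutants. The means were 134 ± 49.8 and 86.0 ± 11.02 RPM, a change of -0.58 (SE 0.26, 95% interval -1.19 to 0.04, limma unadjusted p = 0.0627), and the values within litters were -0.39 and -0.95. Without control 3 the change was -0.30.

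With litter as a term beside genotype, the unadjusted limma p for the genotype change of Smpd3 was 0.00709, that of Ank 0.0147 and that of Phospho1 0.0221, and the Benjamini-Hochberg adjusted p stayed at 1.00 for each. Over all tested genes 2.03% were under 0.05 in that fit. The other 6 genes of the pathway kept an unadjusted p above 0.05 there. The same 3 genes were under 0.05 with the erythroid marker level as a covariate, against 1.55% of all tested genes. The erythroid sum, like these 3 genes, was highest in control 3, so this fit does not stand apart from that library. With the enamel epithelium marker level as a covariate the genes under 0.05 were Ank and Phospho1, against 2.44%. Without control 3, and without litter in the fit, the unadjusted limma p was 0.172 for Smpd3, 0.151 for Ank and 0.188 for Phospho1. With sample weights it was 0.0825, 0.234 and 0.262, in that order.

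The phosphate carriers showed the smallest genotype estimates besides Fam20c. Slc20a1 (chr2:129198764-129211616, plus strand) was 16.0, 9.02 and 29.2 RPM in controls 1 to 3 and 20.4, 10.4 and 18.1 RPM in mutants 1 to 3, so that the mutants lay within the controls. Its change was -0.05 (SE 0.42, limma unadjusted p = 0.917), with 0.26 within litter 1 and -0.66 within litter 2. Slc20a1 shares 452 of its exon bases (8.10%) with 9830144P21Rik and 280 (5.02%) with Gm4430, both on the opposite strand. Slc20a2 (chr8:22476788-22569612, plus strand) was 1199, 1902 and 453 RPM in controls 1 to 3 and 1185, 1888 and 411 RPM in mutants 1 to 3. The libraries of the same number lay close to each other in both genotypes. The change of Slc20a2 was -0.06 (SE 0.70, 95% interval -1.70 to 1.59) in the fit without litter. With litter as a term its SE was 0.29, and the differences within the litters were -0.01 and -0.14.

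Phex, X-linked at chrX:157162075-157415312 on the minus strand, had the widest spread of the pathway. It was 387, 498 and 113 RPM in controls 1 to 3 and 725, 507 and 18.2 RPM in mutants 1 to 3. Both litter 2 libraries were below all 4 of litter 1, and the highest library exceeded the lowest 39.9-fold. That range was larger than the range of 99.9% of tested genes. The means were 333 ± 198 in controls and 417 ± 362 RPM in mutants, whereas the mean change on the log2 scale was -0.55 (SE 1.34, 95% interval -3.71 to 2.62, limma unadjusted p = 0.696). The direction of the Phex estimate differs between these scales. It turned to 1.11 without mutant 3. Xist was between 77.8 and 262 RPM in the libraries numbered 2 and 3. Phex there was 498 and 507 RPM in litter 1 and 113 and 18.2 RPM in litter 2. Control 1 and mutant 1, with Xist at 0.0329 and 0.178 RPM, had Phex at 387 and 725 RPM. The part of the sex of the animals in the Phex values was not tested.

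Fam20c (chr5:138754514-138810077, plus strand) was 67.2, 69.6 and 84.4 RPM in controls 1 to 3 and 141, 71.7 and 39.6 RPM in mutants 1 to 3. The controls were tight and the mutants spread to both sides of them, with mutant 1 on top and mutant 3 at the bottom. The means were 73.7 ± 9.28 and 84.0 ± 51.8 RPM and the change 0.01 (SE 0.41, limma unadjusted p = 0.985). Mutant 1 was also the library with the highest enamel marker sum, 49721 RPM. That sum was 39321 RPM in control 3, with Fam20c at 84.4 RPM, and 20594 RPM in mutant 3, with Fam20c lowest at 39.6 RPM. The part of enamel tissue in the Fam20c values was not tested.

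**Figure D2:**
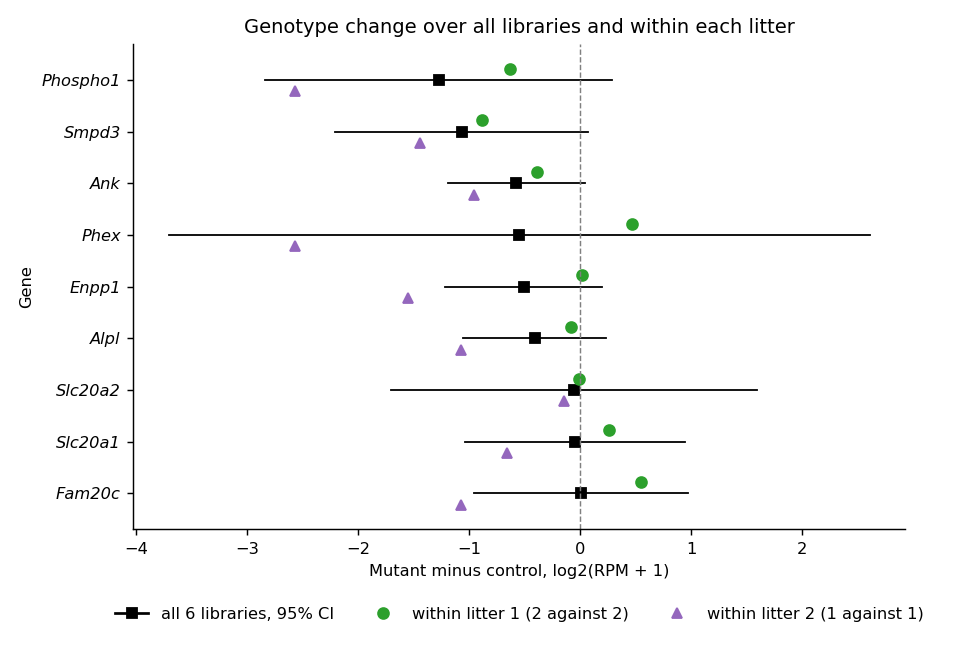
Genotype change (mutant minus control, in log2(RPM + 1)) of each gene, as the estimate over all 6 libraries with its 95% interval (squares), within litter 1 (circles, 2 against 2) and within litter 2 (triangles, 1 against 1). All intervals include 0, and all 9 triangles lie below 0, from -0.14 for Slc20a2 to -2.57 for Phospho1 and Phex.

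For several of these genes the litter estimate was larger in size than the genotype estimate, although none passed adjustment. With genotype in the fit, litter 2 minus litter 1 had an adjusted p under 0.05 for 0 of the 9 genes and for 126 of all tested genes (0.872%). The unadjusted p was under 0.05 for 5 of the 9, against 20.9% of all tested genes. Of these 5, 2 were lower in litter 2, against 13.7% of all tested genes, and 3 higher, against 7.2%. This split rests on control 3: without it 5 genes were again under 0.05, but all were lower in litter 2 (Alpl, Enpp1, Fam20c, Phex and Slc20a2, against 6.11% of all tested genes) and none higher (against 3.54%). Phex was 529.5 ± 141 RPM in the 4 libraries of litter 1 (SD) and 65.6 RPM on average in the 2 of litter 2, a change of -3.47 (SE 0.63, limma, Benjamini-Hochberg adjusted p = 0.0657). Without control 3 it was -4.99 and without mutant 3 it was -1.95, again with 1 library left in litter 2. Slc20a2 was 1544 ± 406 RPM in litter 1 and 432 RPM in litter 2, a change of -1.80 (SE 0.31, limma, Benjamini-Hochberg adjusted p = 0.0610). Phex and Slc20a2 were also the ones whose litters did not overlap, which held for 35.5% of all tested genes (20.5% with litter 2 lower, as here).

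Smpd3, Phospho1 and Ank had the opposite sign between litters. The estimate was 1.15 (SE 0.29) for Smpd3, 1.48 (SE 0.45) for Phospho1 and 0.56 (SE 0.19) for Ank, with limma's Benjamini-Hochberg adjusted p at 0.120, 0.158 and 0.173. Without control 3 the estimates were 0.87, 0.51 and 0.27, and none of these 3 genes kept an unadjusted p under 0.05. Control 3 carried the top value in each of these genes. It was the highest library for 6 of the 9 genes and for 13.5% of all tested genes. Alpl, Enpp1, Slc20a1 and Fam20c had litter estimates of -0.32, 0.08, 0.75 and -0.51 with unadjusted p above 0.05. The estimate of Slc20a1 ran from 0.29 without control 3 to 1.21 without mutant 3, and its unadjusted p was under 0.05 without mutant 3 and without mutant 1. Enpp1 was at 0.86 without mutant 3 and -0.70 without control 3, with an unadjusted p under 0.05 in both.

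**Figure D3:**
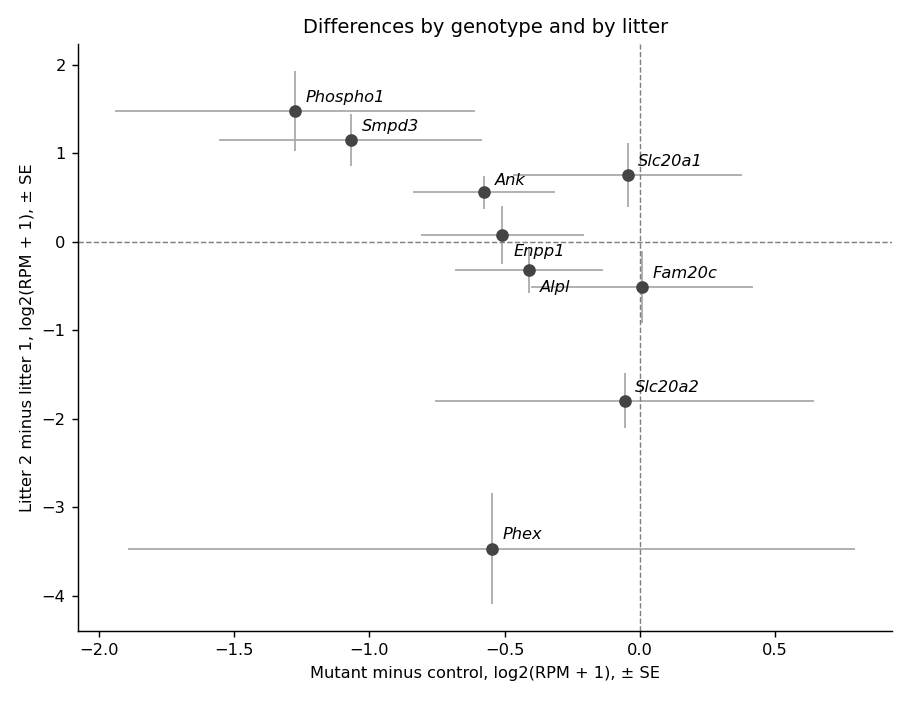
Litter change against genotype change for the 9 genes on the log2(RPM + 1) scale, each point with its standard error in both directions. Phospho1, Smpd3 and Ank lie at upper left, Slc20a2 and Phex at the bottom, and the genotype bars of Phex are the widest (SE 1.34).

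The genotype difference was further compared between litters with an interaction term, which sets the mutant minus control difference of litter 2 against that of litter 1. The term was below 0 for 9 of 9 genes, against 29% of all tested genes, and its median was -0.996 against 0.19 over all. No adjusted p was under 0.05, either in the pathway or among all tested genes (0%), and the smallest over all genes was 0.501. The term has no replicate in litter 2, so its spread comes from the litter 1 libraries alone and each p assumes that the lone litter 2 libraries vary like them. On that assumption the unadjusted p was under 0.05 for 5 of the 9 genes, against 5.06% of all tested genes. All had a term below 0, as did 1.96% of tested genes at that threshold. They were Phex at -3.04 (SE 0.43, unadjusted p = 0.000371), Phospho1 at -1.94 (SE 0.53, unadjusted p = 0.0101), Fam20c at -1.62 (SE 0.54, unadjusted p = 0.0237), Enpp1 at -1.56 (SE 0.27, unadjusted p = 0.00117) and Alpl at -0.996 (SE 0.39, unadjusted p = 0.0435), all from limma. When 1 library of litter 1 was left out, Phex, Phospho1, Fam20c and Enpp1 kept an unadjusted p under 0.05 in 4 of 4 fits. Alpl kept it only without mutant 2, with estimates of -1.13 to -0.86 over the 4 fits. All 9 rest on the same control 3 and mutant 3, so they are not independent of each other. Within litter 2 all 9 genes were lower in the mutant, with a median of -1.07 against 0.12 over all tested genes, and within litter 1 it was 5 of 9 with a median of -0.01 against -0.08. The 5 genes lower in both litters were Alpl, Phospho1, Smpd3, Ank and Slc20a2, a pattern found in 18.1% of all tested genes. In mutant 3 the odontoblast marker sum was 8366 RPM and in control 3 it was 23538 RPM. The osteoblast sum was 5265 against 15844 RPM, the enamel sum 20594 against 39321 and the erythroid sum 610 against 1984. Higher in mutant 3 were the follicle (1507 against 883 RPM), endothelial (248 against 243) and glial sums (28.6 against 26.4). The part of these differences in the litter 2 values was not tested.

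The shape of each gene's profile over the 6 libraries was compared with that of all other tested genes. Each profile was log2(RPM + 1) centred on its own mean, and the distance was the root-mean-square difference over the 6 libraries, so that a small value marks a like profile. All 9 genes had a range of at least 1 on the log2 scale, as did 21.4% of tested genes. Likeness is a description here, since all genes share the same libraries.

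For Phex the nearest of 14443 genes was Dspp, which encodes the main phosphoprotein of dentin and marks odontoblasts. The distance was 0.283, against a median of 1.83 to all other tested genes. Dspp was 4032, 4844 and 817 RPM in controls 1 to 3 and 6872, 4642 and 113 RPM in mutants 1 to 3. It thus repeated the order of Phex in the litter 2 libraries, with mutant 3 lowest and control 3 next. Cpz at 0.460 and Loxl4 at 0.512 followed. The odontoblast markers did not share 1 pattern: Dmp1, another of them, was 5.33, 18.9 and 88.7 RPM in controls 1 to 3 and 16.9, 5.36 and 15.2 RPM in mutants 1 to 3. The litter estimate was 1.80 for Dmp1, against -4.03 for Dspp and -3.47 for Phex.

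The promoter window of Phex, 300 bases around the RefSeq start (chrX:157415237-157415536, minus strand, GRCm38.p6), is printed because it stands apart in composition. Searched on both strands were TGTGGT (RUNX core), GGCGCC (a GC-rich motif bound by BMP Smads), GTCTAGAC (a pair of Smad boxes), GGGCGG (known as a GC box) and TATAAA (the core of many promoters). In the windows printed here capitals mark matches. The Phex window held none of them and had 38.7% G and C bases. The median was 52.7% over all windows and 70% over the 9 windows matched to 7 genes of the pathway (Alpl and Slc20a1 have 2 each). No window was matched to Smpd3 or Slc20a2.
Phex: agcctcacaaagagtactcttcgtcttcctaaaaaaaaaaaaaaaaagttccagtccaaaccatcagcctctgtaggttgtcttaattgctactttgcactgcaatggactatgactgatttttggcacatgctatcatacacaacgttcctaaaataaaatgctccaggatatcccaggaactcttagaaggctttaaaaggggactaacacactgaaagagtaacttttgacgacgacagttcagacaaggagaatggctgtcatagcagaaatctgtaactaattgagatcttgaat

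For Phospho1 the nearest profiles were Dmrt1 at 0.206, Ifitm5 at 0.292 and Abi3 at 0.301, against a median distance of 1.13. Ifitm5 encodes an osteoblast membrane protein, and Ibsp, bone sialoprotein, was the sixth nearest at 0.336. The third marker by distance was Dmp1, listed here among the odontoblast markers, at 0.4996. The osteoblast markers did not share 1 pattern either: Bglap and Bglap2, osteocalcin genes so alike that counting may split their reads, had litter estimates of -1.58 and -1.43, against 1.48 for Phospho1, and lay nearer to Phex, at 0.949 and 1.05. Dmp1, Bglap and Bglap2 are named after their values were seen. Ifitm5 was 4.84, 5.53 and 45.2 RPM in controls 1 to 3 and 2.81, 2.495 and 6.33 RPM in mutants 1 to 3, with control 3 again alone on top. Abi3, like Zfp652, has exons that overlap those of Phospho1. The windows of Phospho1 (chr11:95824250-95824549, plus strand) and Ifitm5 (chr7:140950194-140950493, minus strand) are set side by side because these genes shared a profile. Both held the GC box, with 3 matches in Phospho1, of which a pair overlap, and 2 in Ifitm5. Only the Phospho1 window held GGCGCC.
Phospho1: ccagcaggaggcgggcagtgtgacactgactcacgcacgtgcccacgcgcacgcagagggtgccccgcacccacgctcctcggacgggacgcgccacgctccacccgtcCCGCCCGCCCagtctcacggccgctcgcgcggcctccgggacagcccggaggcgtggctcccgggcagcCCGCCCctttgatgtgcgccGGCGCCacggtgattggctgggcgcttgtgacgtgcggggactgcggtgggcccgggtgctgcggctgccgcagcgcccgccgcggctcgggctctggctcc
Ifitm5: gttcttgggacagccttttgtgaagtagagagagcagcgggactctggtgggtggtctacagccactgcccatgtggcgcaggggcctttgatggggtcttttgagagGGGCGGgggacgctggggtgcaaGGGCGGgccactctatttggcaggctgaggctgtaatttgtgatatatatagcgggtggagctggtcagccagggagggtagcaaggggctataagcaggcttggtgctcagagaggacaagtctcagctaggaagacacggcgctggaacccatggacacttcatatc

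For Fam20c the nearest profile was that of Fam20a, the pseudokinase of the same family that activates Fam20c and is known for its role in enamel. Its distance was 0.174, against a median of 0.629. Fam20a was 38.2, 45.0 and 53.2 RPM in controls 1 to 3 and 74.0, 45.9 and 18.0 RPM in mutants 1 to 3, so that mutant 1 was highest and mutant 3 lowest in both genes. Papss2 at 0.174 and Plekhh1 at 0.186 came next. The windows of Fam20c (chr5:138754831-138755130, plus strand) and Fam20a (chr11:109722189-109722488, minus strand) each held 1 GC box and 1 GGCGCC.
Fam20c: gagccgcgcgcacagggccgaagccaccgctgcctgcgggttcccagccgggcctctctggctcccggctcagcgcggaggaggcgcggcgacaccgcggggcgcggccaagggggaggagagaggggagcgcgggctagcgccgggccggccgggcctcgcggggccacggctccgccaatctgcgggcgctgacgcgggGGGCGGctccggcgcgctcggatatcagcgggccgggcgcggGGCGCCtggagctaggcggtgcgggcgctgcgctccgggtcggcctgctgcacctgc
Fam20a: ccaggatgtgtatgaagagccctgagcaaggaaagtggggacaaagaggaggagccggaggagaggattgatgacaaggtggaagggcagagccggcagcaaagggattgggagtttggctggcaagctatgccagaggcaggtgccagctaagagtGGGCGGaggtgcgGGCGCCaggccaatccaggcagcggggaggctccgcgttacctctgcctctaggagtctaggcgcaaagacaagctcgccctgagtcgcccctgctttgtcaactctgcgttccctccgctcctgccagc

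Of the 9 windows of the 7 genes, GGCGCC was found in 4 (1 each of Alpl, Phospho1, Ank and Fam20c), against 11.9% of all 32851 windows. The GC box was found in 7, against 35.7%, the RUNX core in 2 (Enpp1 and Slc20a1), against 16.8%, TATAAA in 2 (Alpl and Slc20a1), against 13.6%, and GTCTAGAC in 0, against 0.213%. The median share of G and C was higher in these windows than over all windows, and both GGCGCC and the GC box are made of those bases alone. A match describes letters and is not a shown site.

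Smpd3 was nearest to Avil at 0.198, Cdh22 at 0.201 and Sgms2 at 0.237, against a median of 0.849. Sgms2 encodes a sphingomyelin synthase, which makes the substrate that Smpd3 cleaves. It was 64.1, 75.4 and 258 RPM in controls 1 to 3 and 34.1, 54.9 and 90.0 RPM in mutants 1 to 3. Control 3 was highest and mutant 1 lowest, as in Smpd3.

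**Figure D4:**
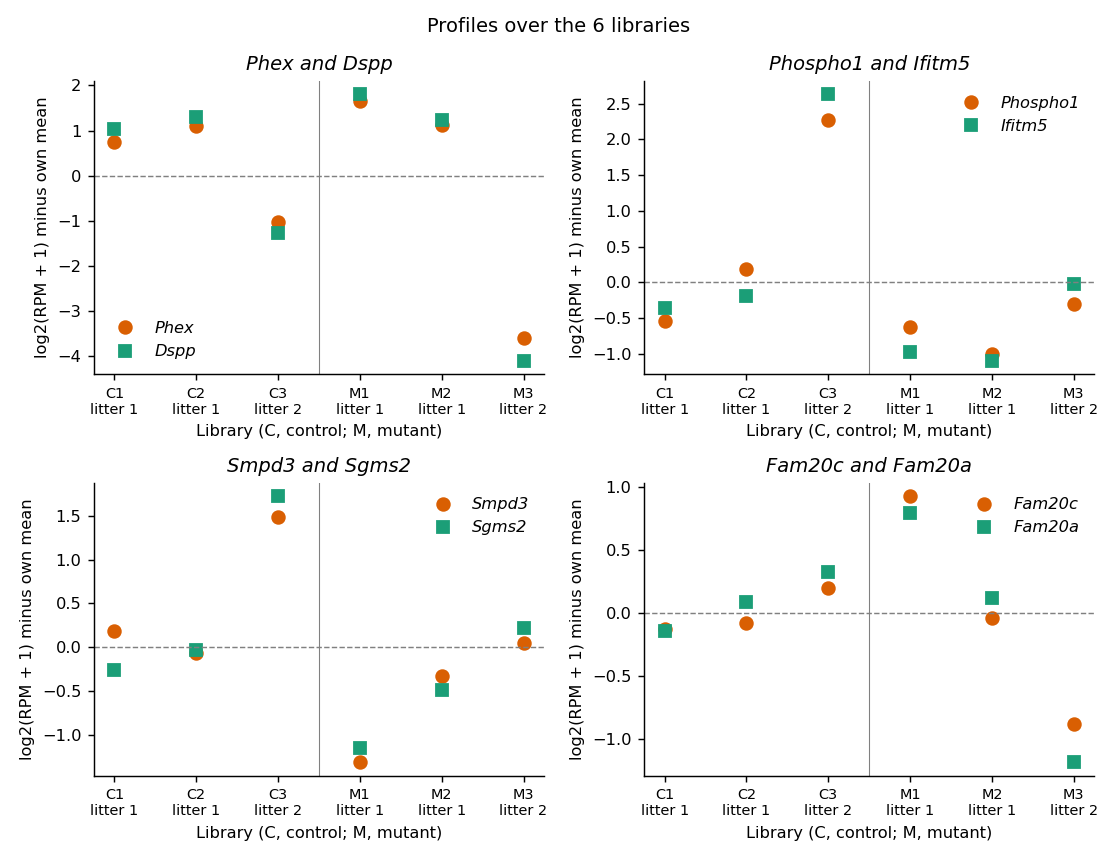
Profiles of 4 gene pairs over the 6 libraries (C, control, and M, mutant), each as log2(RPM + 1) minus the gene's own mean. Phex and Dspp fall together in C3 and M3, Phospho1 with Ifitm5 and Smpd3 with Sgms2 peak in C3, and Fam20c with Fam20a is highest in M1 and lowest in M3.

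Alpl was nearest to Mmp23 at 0.106, Pcolce, an enhancer of collagen processing, at 0.113, and Nav2 at 0.127. Enpp1 was nearest to Timp1, a metalloproteinase inhibitor, at 0.0711, with Gm11532 at 0.121 and the epithelial factor gene Sp6 at 0.124. Ank was nearest to Lrrc15 at 0.0487, Cux1 at 0.0595 and Bambi, a pseudoreceptor of the BMP and TGF-beta families, at 0.0746. Slc20a1 was nearest to Jph4 at 0.0541, Chst8 at 0.105 and BC057022 at 0.118. Slc20a2 was nearest to Mgst1 at 0.124, Dll1, a Notch ligand, at 0.127, and Map3k5 at 0.149. Between genes of the pathway, Alpl and Enpp1 were the closest pair at 0.248, followed by Enpp1 and Ank at 0.335 and Alpl and Fam20c at 0.367. Median distances to all other tested genes were 0.443 for Alpl, 0.528 for Enpp1, 0.492 for Ank and 0.629 for Fam20c. They were 0.616 for Slc20a1 and 0.888 for Slc20a2.

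Related genes were read from 6 lists of 83 genes in all, of which 72 were tested. None passed adjustment between genotypes. With an unadjusted p under 0.05 there were 4, all lower in mutants, against 0.692% of all tested genes in that direction. Over the 72 genes 51 estimates lay below 0 and 21 above, with a median of -0.07. Over all tested genes 54.4% lay below 0 and the median was -0.01, which also stands beside each list below.

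Among the secretory kinases related to Fam20c, 10 of 10 were tested, with 6 below 0, 4 above and a median of -0.12. Pkdcc, a secreted tyrosine kinase, was 201, 244 and 301 RPM in controls 1 to 3 and 116, 155.5 and 171 RPM in mutants 1 to 3. The groups did not overlap, as for 2.64% of all tested genes, and genes named for their unadjusted p are likelier to show this. The change was -0.75 (SE 0.22, limma unadjusted p = 0.00981, Benjamini-Hochberg adjusted p = 1.00). Dipk2a, listed as 1190002N15Rik, was 51.1, 56.4 and 73.2 RPM in controls 1 to 3 and 35.5, 34.8 and 47.4 RPM in mutants 1 to 3. Its groups did not overlap either (change -0.60, SE 0.19, limma unadjusted p = 0.0151, adjusted p = 1.00). Fjx1, the other most abundant gene of that list, had a change of -0.05.

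Of the secreted phosphoproteins and mineral inhibitors, 11 of 13 were tested, with 10 below 0, 1 above and a median of -0.20. Ibsp was 35.5, 65.9 and 154 RPM in controls 1 to 3 and 29.9, 23.6 and 25.7 RPM in mutants 1 to 3, with no overlap (change -1.41, SE 0.47, limma unadjusted p = 0.0195, adjusted p = 1.00). Spp1, osteopontin, was 4.54, 96.1 and 159 RPM in controls 1 to 3 and 4.62, 3.36 and 5.20 RPM in mutants 1 to 3, so that control 1 lay among the mutants (change -3.05, SE 1.14, limma unadjusted p = 0.0312, adjusted p = 1.00). Ibsp and Spp1 are also in the osteoblast marker list. Its sum was 15844 to 23150 RPM in controls and 5265 to 30510 RPM in mutants. All 9 tested genes of that list had estimates below 0, as did all 8 odontoblast markers and 54.4% of all tested genes. Both marker lists hold Col1a1 and Sp7. The part of osteoblast RNA in the Ibsp and Spp1 values was not tested. The most abundant genes of the list, Sparc and Dspp, had changes of -0.09 and -0.71.

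The other lists held no gene with an unadjusted p under 0.05 between genotypes. Genes of pyrophosphate and nucleotide hydrolysis or export had 7 of 12 tested below 0 and a median of -0.04, with changes of -0.03 for Enpp2 and 0.22 for Nt5e. Phosphate transport and hormonal control had 5 of 8 below 0 and a median of -0.01, with -0.17 for the receptor gene Fgfr1 and -0.01 for the mitochondrial carrier gene Slc25a3. Choline phospholipid and sphingomyelin metabolism had 14 of 18 below 0 and a median of -0.07, with -0.30 for the choline transporter gene Slc44a1 and 0.02 for Chpt1. Matrix vesicle annexins, channels and calcium pumps had 9 of 13 below 0 and a median of -0.04, with -0.03 for Anxa2 and -0.12 for Anxa5. Slc34a3, a renal phosphate carrier gene, Cyp24a1, which breaks down vitamin D, and Ahsg, the fetuin-A gene, were at 0 in every library and were named after their values were seen. A count of 0 at this depth allows up to 0.0987 to 0.126 RPM (3 reads).

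Between litters 29 of the 72 tested genes had an unadjusted p under 0.05, against 20.9% of all tested genes. Enpp6 alone passed adjustment, against 0.872% of all tested genes. Enpp6, named after its values were seen, is a choline-specific phosphodiesterase that acts on glycerophosphocholine. It was 97.98, 177 and 21.6 RPM in controls 1 to 3 and 93.3, 159.8 and 23.8 RPM in mutants 1 to 3, a litter change of -2.43 (SE 0.30, limma, Benjamini-Hochberg adjusted p = 0.0414). The adjusted p of Enpp6 was 0.0537 with median-of-ratios scaling, 0.188 without control 3, 0.174 without mutant 2 and 0.120 without mutant 3, so the call does not hold there, and it was 0.0271 to 0.0454 in the other 4 alternatives (limma, Benjamini-Hochberg). The change itself stayed between -2.62 and -2.24. As in Slc20a2, both litter 2 libraries of Enpp6 were lowest and library 2 of each genotype was its highest.

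**Figure D5:**
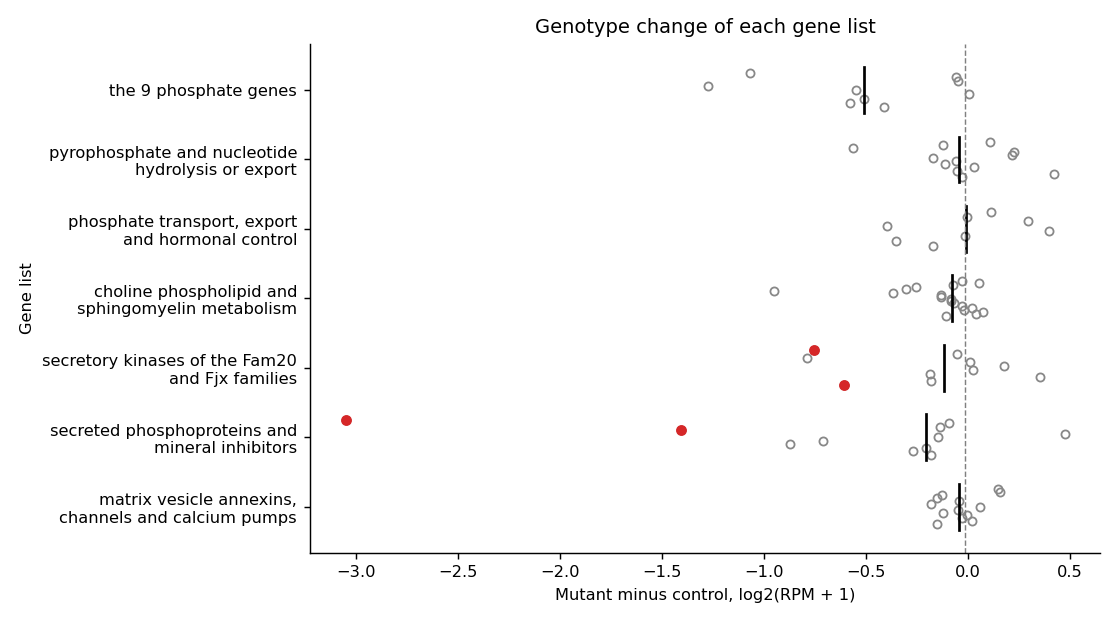
Genotype change of every tested gene of the pathway and of the 6 related lists on the log2(RPM + 1) scale, with a bar at the median of each list and a dashed line at the median of all tested genes (-0.01). Filled points are the 4 genes with an unadjusted p under 0.05: Pkdcc, Dipk2a, Ibsp and Spp1.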

How the data were processed

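Libraries of 3 mutants and 3 controls were compared. The authors deposited log2 values for 25899 genes in a table whose name speaks of normalized RPKM. Per the submitters' processing notes TopHat2 and mm10 were used, with no role given, and the counting program and annotation are not given in the sources used here. Raised as powers of 2, 99.9% of the deposited values were whole multiples of a step shared by all genes of a column (within 0.02), so gene length was not divided out and they were read as log2 RPM, a unit inferred from the values; genes without reads held 0.9 of 1 read and were set to 0. The 14444 genes averaging 1 RPM or more entered limma 3.58.1 (R 4.3.3) as log2(RPM + 1) (lmFit, eBayes with trend, two-sided, Benjamini-Hochberg over all tested genes, threshold 0.05), for genotype without a covariate, for litter beside genotype, and for their interaction. The scale understates changes of low genes. The scripts were tested on simulated data.

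Levels per length used the exon union of GENCODE basic models on GRCm38, the assembly of mm10. Promoter windows came from RefSeq, GRCm38.p6; 7 of the 9 genes were matched. All 83 related genes were matched, some by RefSeq synonym. Named were the 9 genes, related genes with an unadjusted p under 0.05 or among the 2 most abundant of a list, and the 3 nearest profiles of each gene; exceptions are marked. The genes, lists and rules were chosen with earlier results of these data known. Skeletal muscle markers summed to 0.315 to 1.13 RPM. Macrophage (250 to 456 RPM), endothelial (200.4 to 308), glial (21.7 to 31.8) and follicle markers (883 to 2243) were measured as well, as ranges over all libraries. Alternatives changed pseudocount, filter, scaling, the eBayes setting, weights, covariates, blocks and libraries. They included limma voom on the reads recovered from the steps.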

Additional observations from a re-analysis of the deposited data

Results flagged for a closer look

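For Phex and Fam20c the litter 1 mutants were separated from the litter 1 controls in 1 direction and mutant 3 differed from control 3 in the other, as for 18.2% of all tested genes. Slc20a1 and Enpp1 also had means of opposite sign in the litters (0.26 and -0.66, and 0.01 and -1.55), but their litter 1 libraries overlapped. For Phex both litter 1 mutants lay above both litter 1 controls (0.46 on the log2 scale), and the litter 2 mutant lay below its control (-2.57). The difference between the litters was -3.04 (limma interaction term, unadjusted p = 0.000371, Benjamini-Hochberg adjusted p = 0.501). For Fam20c the values were 0.55 and -1.07, and the difference was -1.62 (limma, unadjusted p = 0.0237, Benjamini-Hochberg adjusted p = 0.868). Litter 2 held 1 library of each genotype, so both differences rest on control 3 and mutant 3, and their p-values assume that these lone libraries vary like those of litter 1.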

How the results depend on the processing

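No genotype change of the 9 genes passed adjustment under any of 24 alternatives, and 15 of the 216 values had the opposite sign. The unadjusted limma p fell under 0.05 for Smpd3 in litter 1 alone, without control 2 and without mutant 3. It did so for Ank and Phospho1 without control 1. Without control 3, mutant 1 or mutant 2 it stayed above 0.05 for all 9. In litter 1 alone Phex was 0.46, Enpp1 0.0128 and Slc20a1 0.26; with sample weights Slc20a2 was 0.0101 (and Phospho1 -0.60, Smpd3 -0.65, Ank -0.26, Enpp1 -0.15, Alpl -0.23 and Slc20a1 -0.13, with a median of -0.23 over the 9), and with the enamel marker covariate Slc20a2 was 0.33 and Fam20c -0.15. Leaving out each library in turn gave -1.51 to 1.11 for Phex, -0.44 to 0.36 for Slc20a1, -0.63 to 0.56 for Slc20a2 and -0.45 to 0.45 for Fam20c. The litter change then ran from -0.82 to 0.18 for Alpl, -0.70 to 0.86 for Enpp1, -1.32 to 0.30 for Fam20c and -4.99 to -1.95 for Phex. The litter difference of the genotype change ran from -0.46 to 0.21 for Slc20a2 and -2.30 to -1.58 for Phospho1. For Phex it ran from -3.29 to -2.78 and for Fam20c from -2.10 to -1.14. Each of these fits had 1 residual degree of freedom. Their spread comes from the 1 pair of same-genotype libraries left in litter 1, and the other libraries are assumed to vary like it. These left-out fits of the litter terms were added after seeing the data.

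Genes under an unadjusted p of 0.05 between genotypes numbered 334 with no filter, 293 with litter as a block, 309 with sample weights, 353 with the enamel covariate, 319 in litter 1 alone and 68 to 325 without 1 library, where 0 to 1 passed adjustment. With the replicate block there were 524, Smpd3, Ank and Phospho1 among them, and 0 passed adjustment. Same-numbered libraries deviated together with r = -0.03, 0.75 and 0.50 across genes, and 4 of 6 libraries correlated best with their own number. This does not settle whether the numbers mark a pairing, and the libraries numbered 3 also share litter 2. Between litters 0 genes passed adjustment with median-of-ratios scaling, and without 1 library 0 to 371 did and 1394 to 4248 had an unadjusted p under 0.05. For the interaction these were 0 to 309 and 616 to 1861. Scaling moved the median genotype change of all genes by at most 0.0147 (median-of-ratios). The interaction moved more: with median-of-ratios scaling the median term of the 9 genes was -1.22, against -0.996 as reported. The intervals are wide with 3 libraries a group, while each of the 9 genes had at least 120 reads in every library.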
